A study of Mus musculus with 6 samples.

Results

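RNA levels of 10 genes of fibroblast growth factor (FGF) signalling, chosen by name, were compared in libraries labelled as oligodendrocyte precursor cells (OPCs). Microglia markers were far more abundant than OPC markers in these libraries, so OPC is used below as the label of the samples. The 10 genes were the receptors Fgfr1, Fgfr2 and Fgfr3, the inhibitors Spry1, Spry2, Spry4 and Spred1, the phosphatase Dusp6 and the transcription factors Etv4 and Etv5. All 10 were among the 18211 genes of the deposited table, and all 10 passed the filter on low values that left 13792 genes for testing. Of the 10, 8 differed between the genotypes, 5 higher and 3 lower in DISC1-Δ3 OPCs, where 39.9% of all tested genes differed, 20.4% higher and 19.5% lower: Fgfr1, Fgfr2 and the Sprouty genes Spry1, Spry2 and Spry4 were higher, and Fgfr3, Dusp6 and Spred1 were lower. Etv4 and Etv5 did not pass the threshold.

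The comparison held 3 libraries labelled wildtype and 3 labelled DISC1-Δ3, all from C57BL/6 mice given tamoxifen by gavage on each day from P4 to P7 and taken at P7. DISC1-Δ3 mice were NG2-CreERTM:DISC1 exon3 fl/+, so that 1 Disc1 allele can lose exon 3 in cells that use the NG2 (Cspg4) promoter, which drives the tamoxifen-dependent Cre; this promoter is used by OPCs and by pericytes. The labels give the controls only as wildtype, and the study describes the wildtype mice of its RNA sequencing as non-CreERT. The deleted allele and Cre therefore cannot be told apart. Cells were panned from brain with an antibody to Pdgfrα and lysed without culture, and the sources used here do not say whether a library holds 1 animal or several, so p-values measure the spread between these libraries.

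FGFs bind receptor tyrosine kinases on the cell surface together with heparan sulfate. The bound receptor acts through adaptors on Ras and the kinases MEK and ERK, and ERK activity in turn induces its own brakes: Sprouty and Spred proteins act upstream on the Ras and Raf step, DUSP6 removes phosphate from ERK in the cytoplasm, and the PEA3 factors ETV4 and ETV5 carry the signal to genes. In the oligodendrocyte lineage, FGF2 is a classical mitogen of OPCs in culture, FGFR3 is known from progenitors and is abundant in astrocytes, and FGFR1 and FGFR2 are known from oligodendrocytes.

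Levels are given in RPKM, read counts scaled for transcript length and library total, so that genes of different length can be compared. Libraries held 13716631 to 16417232 assigned reads, and 1 read corresponded to 0.0609 to 0.0729 CPM. Fold changes are fitted log2 values from edgeR, DISC1-Δ3 over wildtype, with a standard error (SE) and a p adjusted over all tested genes; the scaling factors were 0.970 to 0.973 in wildtype and 1.021 to 1.041 in DISC1-Δ3 libraries, and the fitted fold of each of the 10 genes was smaller than its ratio of RPKM means. Replicate libraries differed by more than counting noise, with a chi-square of 1.80 to 5.38 per degree of freedom. Disc1 stood at 3.51, 3.34 and 3.81 RPKM in wildtype and 2.86, 2.44 and 2.85 RPKM in DISC1-Δ3 libraries (log2 fold change -0.45, SE 0.088, adjusted p = 0.000528), a gene-level value that does not resolve exon 3. Cspg4, whose promoter drives Cre, was at 15.8 ± 1.38 in wildtype and 22.9 ± 1.41 RPKM in DISC1-Δ3 OPCs (SD, n = 3 each; log2 fold change 0.46, adjusted p = 1.16e-05).

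The OPC label was set against markers of the cells that brain tissue holds. OPC markers were detected, and their summed level over 12 genes was 509.3 to 530.0 RPKM in wildtype and 645.9 to 670.5 RPKM in DISC1-Δ3 libraries, with 8 genes higher, 1 lower and 3 not past the threshold. The panning antigen Pdgfra itself was at 17.5 ± 0.503 (SD, n = 3) in wildtype and 25.9 ± 0.915 RPKM (SD, n = 3) in DISC1-Δ3 OPCs. Microglia markers were far more abundant: their 10 genes summed to 12143.6 to 12411.2 RPKM in wildtype and 8579.0 to 8876.9 RPKM in DISC1-Δ3 libraries, and all 10 were lower. The 10 mature oligodendrocyte markers summed to 2453.4 to 2486.2 and 2269.0 to 2298.5 RPKM (of 9 tested, 0 higher and 5 lower), 8 markers of newly formed oligodendrocytes to 270.4 to 281.5 and 318.4 to 322.1 RPKM (2 higher, 3 lower), and 11 astrocyte markers other than Fgfr3 to 2133.4 to 2168.9 and 2052.5 to 2068.3 RPKM. Of the markers of newly formed oligodendrocytes, Gpr17 alone rose from 61.7 ± 1.49 to 104.4 ± 3.71 RPKM (SD, n = 3 each). The median log2 fold change of that list was -0.02, so its summed rise does not describe most of its genes. Summed levels in wildtype and DISC1-Δ3 libraries were 163.1 to 173.5 and 216.9 to 219.7 RPKM for 9 endothelial markers (6 higher, 0 lower). For 8 pericyte and smooth muscle markers they were 149.2 to 158.5 and 214.5 to 221.0 RPKM (8 higher, 0 lower), and for 9 neuron markers 350.4 to 352.9 and 417.8 to 439.3 RPKM (7 higher, 0 lower). Among these neuron markers, Slc17a6 passed the filter only through the DISC1-Δ3 libraries, with 0.43, 0.43 and 0.25 RPKM in wildtype. No marker was at 0 in every library of a genotype, and in bulk RNA fewer cells of a type cannot be told apart from less RNA per cell. The part of these marker differences in the values that follow was not tested.

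**Figure D1:**
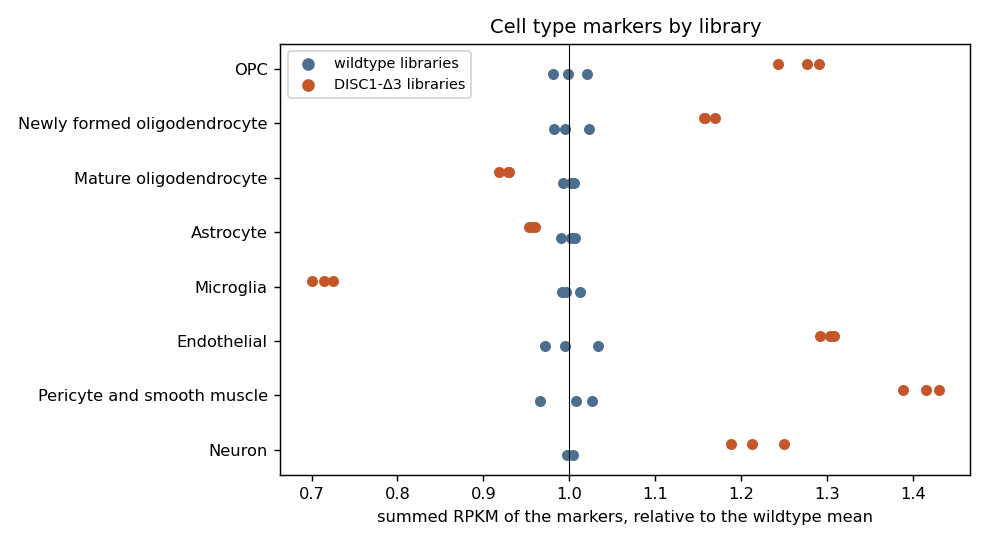
Summed RPKM of each marker list in every library (x axis, relative to the mean of the 3 wildtype libraries; y axis, marker lists; Fgfr3 is left out of the astrocyte list). DISC1-Δ3 libraries lie below the wildtype libraries for microglia, mature oligodendrocyte and astrocyte markers and above them for the other lists. The newly formed oligodendrocyte list, whose sum includes the rise of Gpr17, had 2 genes higher and 3 lower.

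Fgfr3 was the most abundant of the receptors and of all 10 genes, and, of the 3 receptors tested here, the one that was lower in DISC1-Δ3 OPCs. Fgfr3 (gene ID 14184, plus strand, chr5:33721724-33737068 in GRCm38) stood at 155.03, 150.78 and 153.59 RPKM in wildtype replicates 1 to 3 and at 145.87, 142.58 and 137.67 RPKM in DISC1-Δ3 replicates 1 to 3. The 3 DISC1-Δ3 libraries all lay below the lowest wildtype library, and the wildtype level was at the 96.2 percentile of tested genes. The fall was small (log2 fold change -0.19, SE 0.042, adjusted p = 0.00154, 95% interval -0.28 to -0.10), and 24.7% of tested genes had a lower log2 fold change. Scaling by library totals alone brought it to -0.11 with an adjusted p of 0.0292. Fgfr3 also serves as an astrocyte marker, and the astrocyte list with it had 8 genes lower, 2 higher and 2 not past the threshold, with a median log2 fold change of -0.18.

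Fgfr1 and Fgfr2 rose. Fgfr1 (gene ID 14182, plus strand, chr8:25518759-25575718) was at 37.17, 37.80 and 36.74 RPKM in wildtype and at 49.60, 50.74 and 49.27 RPKM in DISC1-Δ3 libraries, from 7686 and 10380 reads in all. The means were 37.2 ± 0.533 (SD, n = 3) and 49.9 ± 0.771 RPKM (SD, n = 3), and the genotypes did not overlap (log2 fold change 0.35, SE 0.044, adjusted p = 4.58e-06, a fitted fold of 1.28). Fgfr2 (gene ID 14183, minus strand, chr7:130162451-130266808), the least abundant of the 3, was at 10.59, 10.34 and 10.11 RPKM in wildtype and 12.85, 13.33 and 14.45 RPKM in DISC1-Δ3 libraries. Every DISC1-Δ3 library was above every wildtype library (log2 fold change 0.31, SE 0.060, adjusted p = 0.000453, a fitted fold of 1.24). OPC, endothelial, pericyte and neuron markers moved in the same direction as these receptors, with median log2 fold changes of 0.47, 0.23, 0.47 and 0.41.

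**Figure D2:**
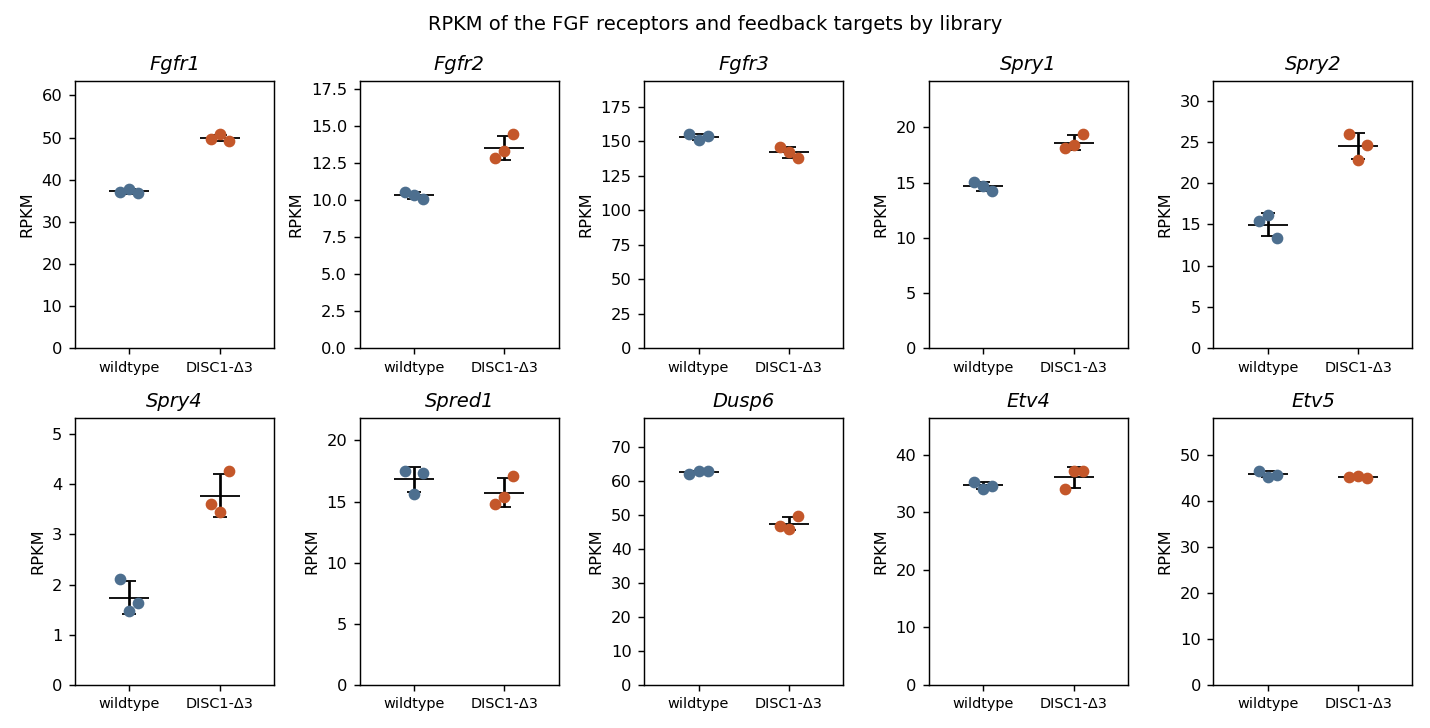
RPKM of the 10 genes (y axis, from 0, a scale for each gene) in the 3 wildtype and 3 DISC1-Δ3 libraries (points, left to right replicates 1 to 3), with the mean and SD in black. The genotypes do not overlap for Fgfr1, Fgfr2, Fgfr3, Spry1, Spry2, Spry4 and Dusp6 and overlap for Spred1, Etv4 and Etv5.

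In RPKM, which is scaled by library totals, the summed receptor level overlapped between the genotypes while the make-up of that sum moved. The fitted fold changes also use scaling factors of 0.970 to 0.973 in wildtype and 1.021 to 1.041 in DISC1-Δ3 libraries. These factors would lower the DISC1-Δ3 sums relative to wildtype, and overlap of the sums under them was not tested. Shares within a library do not depend on its scaling. Fgfr1, Fgfr2, Fgfr3 and Fgfr4 together came to 203.0, 199.1 and 200.6 RPKM in wildtype and 208.6, 206.8 and 201.6 RPKM in DISC1-Δ3 libraries (exact permutation test, two-sided, p = 0.2). Fgfr3 made up 76.4, 75.7 and 76.6% of the sum in wildtype and 69.9, 68.9 and 68.3% in DISC1-Δ3 libraries, a difference of -7.18 percentage points. Fgfr1 took 18.3, 19.0 and 18.3% in wildtype libraries, against 23.8, 24.5 and 24.4% in DISC1-Δ3 libraries, and Fgfr2 took 5.22, 5.19 and 5.04% and 6.16, 6.45 and 7.17%. The shares of these 3 receptors did not overlap between the genotypes, and each exact permutation test gave p = 0.1, the smallest that 3 libraries against 3 allow. Fgfr4, which did not pass the filter, held 0.0698 to 0.153% of the sum, with overlapping genotypes (exact permutation p = 0.5). The ratio of Fgfr3 to Fgfr1, chosen after the values were seen, was 4.17, 3.99 and 4.18 in wildtype libraries, against 2.94, 2.81 and 2.79 in DISC1-Δ3 libraries (exact permutation p = 0.1).

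**Figure D3:**
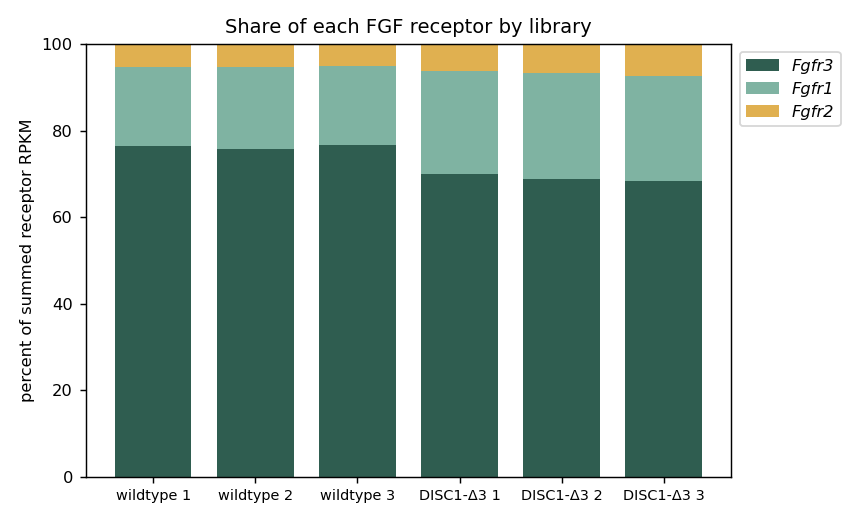
Share of Fgfr3, Fgfr1 and Fgfr2 in the summed RPKM of the FGF receptors (y axis, percent) in each of the 6 libraries (x axis); Fgfr4, at most 0.153%, is not drawn. Fgfr3 takes 75.7 to 76.6% in wildtype and 68.3 to 69.9% in DISC1-Δ3 libraries.

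Spry1, Spry2 and Spry4 rose together, and Dusp6, the other classical feedback inhibitor, fell. The 250 bases before the start of Spry1 (chr3:37639697-37639946, plus strand), Spry2 (chr14:105896820-105897069, minus strand) and Dusp6 (chr10:99262981-99263230, plus strand) are shown because these genes answer to the same pathway and differed in opposite directions. They are RefSeq windows in GRCm38.p6, written 5′ to 3′ on the gene's strand, and capitals mark a motif match on either strand.
Spry1: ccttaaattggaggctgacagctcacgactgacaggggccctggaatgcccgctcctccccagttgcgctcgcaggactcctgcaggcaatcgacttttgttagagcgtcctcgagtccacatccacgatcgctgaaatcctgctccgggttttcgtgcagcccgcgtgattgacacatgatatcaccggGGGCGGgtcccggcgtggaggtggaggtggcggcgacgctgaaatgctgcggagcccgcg
Spry2: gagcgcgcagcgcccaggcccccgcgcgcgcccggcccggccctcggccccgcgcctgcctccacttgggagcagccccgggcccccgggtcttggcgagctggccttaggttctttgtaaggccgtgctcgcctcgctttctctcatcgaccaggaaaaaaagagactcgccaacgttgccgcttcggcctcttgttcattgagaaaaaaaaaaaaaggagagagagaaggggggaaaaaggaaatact
Dusp6: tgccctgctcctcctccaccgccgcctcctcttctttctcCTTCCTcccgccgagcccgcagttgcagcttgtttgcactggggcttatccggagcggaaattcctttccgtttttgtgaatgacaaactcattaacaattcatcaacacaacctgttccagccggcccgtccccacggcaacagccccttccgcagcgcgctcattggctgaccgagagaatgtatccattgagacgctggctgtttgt
The motifs searched were CCGGAA (ETS), AGGAAG (PEA3), CTTTGA (TCF/LEF), TGACGT (CRE) and GGGCGG (GC box), each on both strands; the ETS and PEA3 strings share the core GGAA, and matches were counted where they overlap. Spry1 held 1 GC box, with its first base at position -60 from the gene's start, and Dusp6 held 1 PEA3 match on the opposite strand, at position -210. The Spry2 window held none of the 5 strings. Among 32851 promoter windows of this length, 32.7% held the GC box, 29.5% the PEA3 string, 13.8% the TCF/LEF string and 6.47% the CRE string, and 3952 windows held the ETS string. Windows were found for 7 of the 10 genes; Fgfr1, Etv4 and Spry4 had none here. No window of the 7 genes held the ETS, TCF/LEF or CRE string, the PEA3 string was also in that of Fgfr2, and GC boxes were in those of Fgfr3, Etv5 and Spred1. A match is a string in the sequence and is not a measured site of binding.

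Spry2 and Spry4 had the largest rises of the 10 genes. Spry2 (gene ID 24064, minus strand, chr14:105891947-105896819), which curbs Ras activation by receptor tyrosine kinases, was at 15.38, 16.15 and 13.40 RPKM in wildtype and at 25.89, 22.78 and 24.66 RPKM in DISC1-Δ3 libraries. Its means of 15.0 ± 1.42 and 24.4 ± 1.57 RPKM (SD, n = 3 each) were apart by more than the spread of either genotype (log2 fold change 0.63, SE 0.079, adjusted p = 5.32e-06), and 5.99% of tested genes had a higher fold change. Spry4 (gene ID 24066, chromosome 18, minus strand) was the least abundant of the 10, at 2.10, 1.48 and 1.64 RPKM in wildtype and 3.60, 3.45 and 4.26 RPKM in DISC1-Δ3 libraries. These values rest on 128, 108 and 119 reads in wildtype and 228, 248 and 305 reads in DISC1-Δ3 libraries. Spry4 thus showed a fitted fold of 2.06 (log2 fold change 1.05, SE 0.13, adjusted p = 4.50e-06, 95% interval 0.77 to 1.32), exceeded by 2.62% of tested genes.

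Spry1 rose less. Spry1 (gene ID 24063, plus strand, chr3:37639947-37644599) was at 15.04, 14.67 and 14.27 RPKM in wildtype and at 18.10, 18.43 and 19.37 RPKM in DISC1-Δ3 libraries (log2 fold change 0.26, SE 0.068, adjusted p = 0.00477). All DISC1-Δ3 values lay above the wildtype values. Summed over Spry1, Spry2 and Spry4, Sprouty RNA was 32.5, 32.3 and 29.3 RPKM in wildtype and 47.6, 44.7 and 48.3 RPKM in DISC1-Δ3 libraries, a ratio of means of 1.49 (exact permutation p = 0.1). Within this sum the share of Spry1 was 46.2, 45.4 and 48.7% in wildtype libraries, against 38.0, 41.3 and 40.1% in DISC1-Δ3 libraries, while Spry4 took 4.58 to 6.46% in wildtype and 7.56 to 8.82% in DISC1-Δ3 libraries. The sums and shares of the Sprouty genes were chosen after the values were seen. Spry3 did not pass the filter, with means of 0.197 and 0.207 RPKM.

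Spred1, which brings neurofibromin to the membrane to switch off Ras, went the other way from the Sprouty genes by a small margin. Spred1 (gene ID 114715, plus strand, chr2:117121071-117182279) was at 17.49, 15.63 and 17.32 RPKM in wildtype and 14.81, 15.34 and 17.06 RPKM in DISC1-Δ3 libraries. The genotypes overlapped in RPKM, and the fitted fall was -0.16 (SE 0.058, adjusted p = 0.0336, 95% interval -0.29 to -0.04). This call was lost in 7 of 15 alternatives, where the adjusted p reached 0.313, among them scaling by library totals (0.303) and the fits without wildtype replicate 1 (0.129), wildtype replicate 3 (0.124), DISC1-Δ3 replicate 1 (0.0884) or DISC1-Δ3 replicate 2 (0.0594). Its fold change stayed below 0, from -0.22 to -0.08, in these alternatives.

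Dusp6 had the largest fall of the 10 genes. Dusp6 (gene ID 67603, plus strand, chr10:99263231-99267489), the phosphatase selective for ERK, was at 62.02, 63.00 and 62.92 RPKM in wildtype and 46.76, 46.00 and 49.84 RPKM in DISC1-Δ3 libraries. The means of 62.6 ± 0.544 and 47.5 ± 2.03 RPKM (SD, n = 3 each) belonged to genotypes that did not overlap (log2 fold change -0.48, SE 0.045, adjusted p = 1.55e-07, 95% interval -0.58 to -0.38), and 7.82% of tested genes had a lower fold change. The ratio of Dusp6 to summed Sprouty RNA, chosen after the values were seen, was 1.91, 1.95 and 2.15 in wildtype libraries, against 0.983, 1.03 and 1.03 in DISC1-Δ3 libraries (exact permutation p = 0.1). Microglia markers fell in the same libraries, with a median log2 fold change of -0.53 against -0.48 for Dusp6, and their part in the fall of Dusp6 was not tested.

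Etv4 and Etv5, the PEA3 factors that read out ERK activity in many tissues, did not pass the threshold. Etv4 (gene ID 18612, minus strand, chr11:101769747-101785310) was at 35.34, 34.07 and 34.63 RPKM in wildtype and 34.01, 37.15 and 37.17 RPKM in DISC1-Δ3 libraries. Its log2 fold change was -0.02 (SE 0.055, adjusted p = 0.791, 95% interval -0.14 to 0.09) and turned to 0.06 when libraries were scaled by their totals. Etv5 (gene ID 104156, minus strand, chr16:22381313-22439570) was at 46.56, 45.38 and 45.74 RPKM in wildtype and 45.19, 45.42 and 45.05 RPKM in DISC1-Δ3 libraries. Its log2 fold change was -0.10 (SE 0.043, adjusted p = 0.0668, 95% interval -0.19 to -0.01). The interval of Etv4 leaves out changes of the size seen in Fgfr1, Spry2, Spry4 and Dusp6, and so does that of Etv5. Set against Etv5, Dusp6 gave ratios of 1.33, 1.39 and 1.38 in wildtype libraries, against 1.03, 1.01 and 1.11 in DISC1-Δ3 libraries (exact permutation p = 0.1; chosen after the values were seen).

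**Figure D4:**
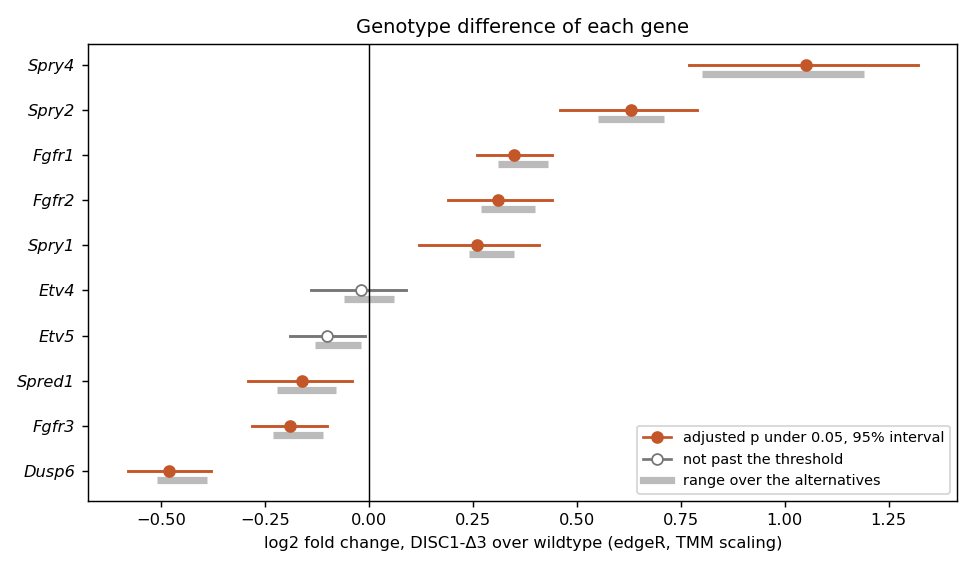
Fitted log2 fold change of each gene, DISC1-Δ3 over wildtype (x axis), with its 95% interval (thin line) and the range of its fold change over the 15 alternatives (grey bar); filled points passed an adjusted p of 0.05. Spry4 is the highest at 1.05 and Dusp6 the lowest at -0.48, and Etv4 and Etv5 are open.

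Read against the whole table, differences between these genotypes were common. RPKM did not overlap between the genotypes for 52.0% of tested genes and for 7 of these 10, 5 higher and 2 lower. The median log2 fold change was 0.12 over the 10 genes and 0.0075 over all tested genes, and the median absolute value 0.29 against 0.19. Scaling by library totals moved the median of all genes to 0.09 and the share of calls that were higher from 51.1% to 69.2%, and left each of the 10 calls in place except that of Spred1.

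The order of the levels changed with genotype. In wildtype OPCs it ran from Fgfr3 through Dusp6, Etv5, Fgfr1, Etv4, Spred1, Spry2, Spry1 and Fgfr2 to Spry4, with overlap only between the neighbours Spred1 and Spry2 and between Spry2 and Spry1. In DISC1-Δ3 OPCs Fgfr1 stood next to Fgfr3 and overlapped with Dusp6, followed by Etv5, Etv4, Spry2, Spry1, Spred1, Fgfr2 and Spry4 without overlap between neighbours. Spry2 and Spry1 thus lay above Spred1 in DISC1-Δ3 OPCs, whereas in wildtype Spry2 overlapped with Spred1 and Spry1 lay below it.

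Across the 6 libraries, the genes whose log2 level ran closest to Fgfr1 were Cplx3 (Pearson r = 0.9997), Lypd6b (0.9990) and Dbn1 (0.9982). Those closest to Fgfr3 were Tnfrsf1b (r = 0.9991), Trem2 (0.9990) and Bscl2 (0.9986), of which Trem2 is a receptor of microglia. Closest to Fgfr2 were Eef1akmt2 (r = 0.9984), Caprin1 (0.9981) and Lrrn3 (0.9969), and among the closest to Spry4 were Inpp5f (r = 0.9977) and Cand1 (0.9956). These values describe 6 points in 2 genotypes that share their libraries and depth, they carry much of the genotype difference itself, and 18 to 112 genes had an r over 0.99 with each of these 4.

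Of the 18 secreted FGF ligands, 17 were in the table and only 3 passed the filter. Fgf3, the one of these 3 with the largest change, was at 0.63, 0.77 and 0.50 RPKM in wildtype and 2.53, 2.25 and 2.18 RPKM in DISC1-Δ3 libraries (log2 fold change 1.78, SE 0.22, adjusted p = 4.77e-06). Fgf1, the most abundant ligand, was at 13.47, 12.06 and 13.21 RPKM in wildtype and, with overlap, at 11.69, 12.58 and 11.77 RPKM in DISC1-Δ3 OPCs (log2 fold change -0.20, adjusted p = 0.0296), a call lost in 6 of 15 alternatives (adjusted p up to 0.262), among them the fits without wildtype replicate 1, wildtype replicate 3 or DISC1-Δ3 replicate 1. Fgf18 had a log2 fold change of 0.63 that did not pass the threshold (adjusted p = 0.102). The OPC mitogen Fgf2 did not pass the filter. Of the 4 intracellular FGF homologous factors, which do not act through FGF receptors, Fgf13 rose from 19.3 ± 1.14 to 28.7 ± 4.64 RPKM (SD, n = 3 each; log2 fold change 0.48, adjusted p = 0.000325) and 3 did not pass the threshold.

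Among the other receptors and co-receptors the change of Fgfrl1 exceeded that of each of the 10 genes. Fgfrl1, an FGF receptor without a kinase domain, stood at 28.00, 27.32 and 26.08 RPKM in wildtype and at 67.06, 66.31 and 65.41 RPKM in DISC1-Δ3 libraries, a fitted fold of 2.31 (log2 fold change 1.21, SE 0.050, adjusted p = 2.27e-12). Fgfrl1 lay below Fgfr1 in wildtype and above it in DISC1-Δ3 libraries. Flrt3, which binds FGF receptors in the membrane, was at 1.29 ± 0.0971 RPKM in wildtype and 2.32 ± 0.233 RPKM in DISC1-Δ3 OPCs (SD, n = 3 each; adjusted p = 0.000266), and the FGF-binding protein Fgfbp3 rose from 8.99 ± 0.902 to 14.1 ± 1.57 RPKM (SD, n = 3 each; adjusted p = 0.000273). Of 7 tested genes of this list 3 were higher, 0 lower and 4 not past the threshold (42.9% called).

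The heparan sulfate list had 22 tested genes, of which 9 were higher, 5 lower and 8 not past the threshold, with a median log2 fold change of 0.02. The largest rises were those of the carrier Sdc1 (log2 fold change 1.36, adjusted p = 5.10e-09), the epimerase Glce (1.08, 9.87e-07), the glypican Gpc4 (0.83, 3.16e-07) and the sulfotransferase Hs6st2 (0.78, 0.00851). Hs6st2, at 0.43, 0.55 and 0.39 RPKM in wildtype and 0.82, 0.77 and 0.87 RPKM in DISC1-Δ3 libraries, passed the filter only through the latter. The filter thus favoured its rise. With a filter at RPKM 1 the list had 21 tested genes, 8 higher and 5 lower. Sdc3, the most abundant gene of the list, fell from 186.7 ± 4.98 to 173.2 ± 5.88 RPKM (SD, n = 3 each; log2 fold change -0.19, adjusted p = 0.00217). This call was lost with limma on log2(RPKM + 0.1), at an adjusted p of 0.0506. Under library totals the list had 9 genes higher and 4 lower.

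Between receptor and ERK, adaptors had 0 genes higher, 4 lower and 10 not past the threshold among 14, with a median log2 fold change of -0.11. The docking protein Gab2 fell by 0.59 on the log2 scale (adjusted p = 3.35e-08), and the ubiquitin ligases Cbl (-0.35, adjusted p = 0.000136) and Cblb (-0.29, 0.0321) and the linker Grb2 (-0.13, 0.0241) were lower. The calls of Cbl, Cblb and Grb2 were lost in 2, 8 and 5 of 15 alternatives, with adjusted p up to 0.0996, 0.231 and 0.351, and under library totals the adaptor list turned to 3 genes higher and 2 lower. Those of Cblb and Grb2 were each lost without wildtype replicate 1 or 3, and that of Cblb also without wildtype replicate 2 or DISC1-Δ3 replicate 1. Of 17 Ras, Raf, MEK and ERK genes 4 were higher, 3 lower and 10 not past the threshold, and under library totals 8 were higher and 0 lower. The exchange factor Rasgrf1 rose (log2 fold change 0.66, adjusted p = 0.000216). The abundant Mapk3, which encodes ERK1, was lower (-0.14, adjusted p = 0.0170), a call lost under library totals and without wildtype replicate 2, with an adjusted p of up to 0.252. The Ras-inactivating Rasa1 (-0.39, adjusted p = 0.0139) and Nf1 (-0.25, 0.0140) were also lower. Both calls were lost without wildtype replicate 1, and that of Rasa1 also without wildtype replicate 2, with adjusted p of up to 0.0876 for Rasa1 and 0.255 for Nf1 over the alternatives.

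The relatives of the feedback genes went both ways. Among other Sprouty, Spred and Sef inhibitors, Spred2 (log2 fold change 0.30, adjusted p = 0.00373) and Il17rd, which encodes Sef (0.43, 0.000406), were higher, and Rasa2 lower (-0.45, 0.00678, but up to 0.0653 in the limma fits, where its call was lost); 3 of 7 tested genes were higher, 1 lower and 3 not past the threshold. Of 10 other dual-specificity phosphatases 3 were higher, 3 lower and 4 not past the threshold. Dusp2 (-0.71, adjusted p = 1.98e-09), Dusp1 (-0.43, 1.71e-07) and Dusp7 (-0.43, 0.000227) were lower with Dusp6, whereas Dusp14 (0.63, 0.00402) and Dusp5, a nuclear phosphatase of ERK (0.50, 0.000336), were higher with the Sprouty genes. Dusp4 was not past the threshold (0.03, 0.773). Of 12 other ETS factors 3 were higher, 4 lower and 5 not past the threshold, with Elk1 the largest rise (0.49, adjusted p = 9.57e-05) and Etv6 the largest fall (-0.43, 2.66e-05). Elk4, counted among the falls (-0.36, adjusted p = 0.0323), kept its call in only 8 of 15 alternatives, with an adjusted p of up to 0.259. Etv1, the third PEA3 factor, was not past the threshold either (-0.19, adjusted p = 0.0978).

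**Figure D5:**
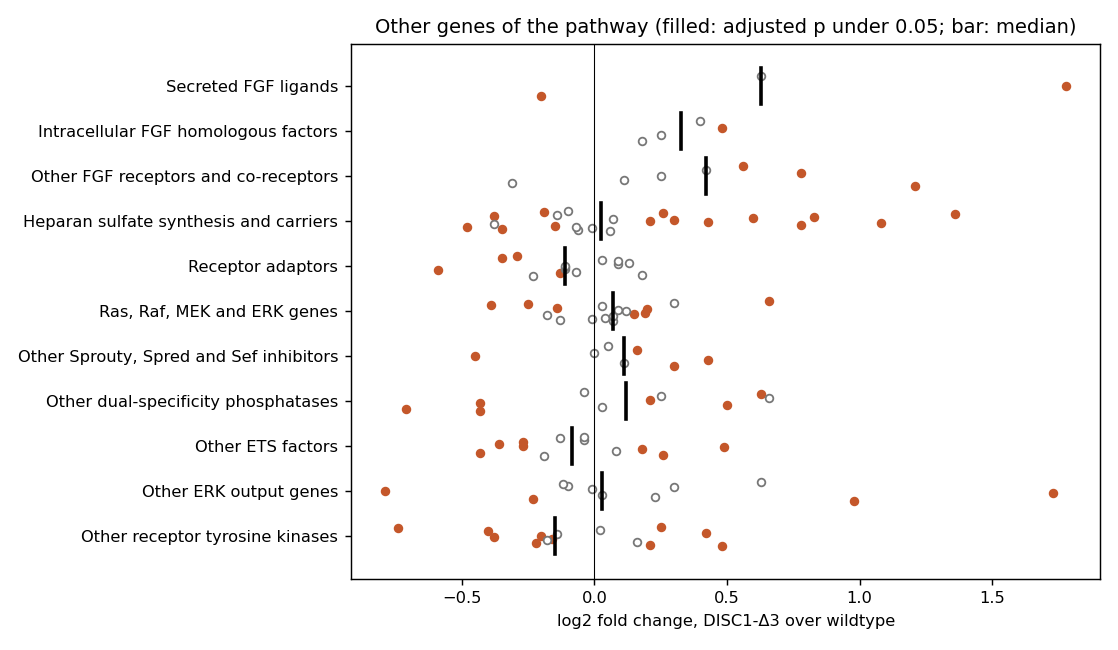
Fitted log2 fold change of every tested gene (x axis) in 11 lists of other pathway genes (y axis); filled points passed an adjusted p of 0.05, and black bars are list medians. List medians run from -0.15 for other receptor tyrosine kinases to 0.63 for the 3 secreted ligands tested, and filled points lie on both sides of 0 in most lists.

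Other genes that ERK is known to induce had 2 genes higher, 2 lower and 7 not past the threshold among 11 tested, with a median log2 fold change of 0.03. Phlda1 rose from 16.6 ± 1.80 to 34.8 ± 3.48 RPKM (SD, n = 3 each; log2 fold change 0.98, adjusted p = 5.47e-08) and the low-abundance Fosl1 from 0.350 ± 0.123 to 1.20 ± 0.268 RPKM (1.73, 0.000659). Fosl1 passed the filter only through the DISC1-Δ3 libraries, so the filter itself favoured a rise. Its wildtype libraries held 4, 10 and 11 reads, at 0.21, 0.40 and 0.44 RPKM. Ier3 fell from 160.7 ± 8.41 to 98.3 ± 3.67 RPKM (SD, n = 3 each; -0.79, adjusted p = 1.87e-09). The immediate-early genes Fos (-0.10, adjusted p = 0.0526) and Egr1 (-0.01, 0.890) and the cyclin Ccnd1 (0.03, 0.725) were not past the threshold, although Fos was past it, and lower, with the replicate block, with DESeq2 and without DISC1-Δ3 replicate 3. Among 14 other receptor tyrosine kinases, which share the ERK cascade, 4 were higher, 6 lower and 4 not past the threshold. Under library totals 5 of them were higher and 4 lower, and in each limma fit 4 were higher and 3 lower. Pdgfra (0.48, adjusted p = 2.42e-07) was higher, and Mertk (-0.74, 1.19e-08) and Axl (-0.40, 1.52e-06), both known from microglia, were lower.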

How the data were processed

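Poly(A) RNA of 3 wildtype and 3 DISC1-Δ3 OPC samples was sequenced as single-end reads. The authors deposited expected counts, in which a read that matches several genes is divided between them, and RPKM made from them, for 18211 genes; 90.2% of expected counts above 0 were whole, within 1e-08. The submitters' processing notes name Bowtie2 2.2.5 and mm10 without their roles, the study's methods name DESeq2, and whether strand was used in counting is not given in the sources used here, so reads of the genes annotated opposite Fgfr1, Fgfr3, Spry1 and Spry4 cannot be separated. The 4 columns of group means were not used.

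Expected counts were rounded. Genes that reached an RPKM of 0.5 in 3 or more of the 6 libraries were tested with edgeR 4.0.16 (R 4.3.3), a quasi-likelihood test with TMM scaling, genotype as the only term, two-sided, and Benjamini-Hochberg adjustment over 13792 genes at 0.05. The fit was also run on simulated counts that had the same variation for all genes. Such counts cannot test it for the uneven spread between these replicates. Biological variation was 5.44%. Alternatives were no filter or RPKM 1, the replicate block, DESeq2 1.42.0, robust empirical Bayes, scaling by library totals or by median of ratios, limma 3.58.1 on log2(RPKM + 1) and log2(RPKM + 0.1), and each library left out. Single values had exact permutation tests. Reads carry no molecular identifiers.

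The members and lists were chosen with earlier results of these data known. Genes open to naming were the 10 members, at most 4 genes with the largest changes past the threshold and the most abundant gene of each list, ligands that passed the filter, Disc1, Cspg4 and, for the receptors and the gene with the largest change, the 3 closest by Pearson correlation of log2 CPM; Etv1, Dusp4, Egr1, Ccnd1, Spry3, Fgf2 and Fgfr4 were added after their values were seen. Gene positions are those of RefSeq in GRCm38.p6, which is mm10. Some genes open to naming are not reported here.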

Additional observations from a re-analysis of the deposited data

How the results depend on the processing

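Of the 10 genes, 9 kept their side of the threshold in all 15 alternatives, and Spred1 lost its call in 7. The count of the 10 past the threshold was 7 or 8 throughout, with 5 higher in each alternative. Without each library in turn, the receptor share differed between genotypes by 5.57 to 5.95 percentage points for Fgfr1, 1.15 to 1.66 for Fgfr2 and -7.61 to -6.79 for Fgfr3. Over all tested genes 5498 calls ranged from 4342 when wildtype replicate 2 was left out to 6232 when DISC1-Δ3 replicate 3 was, and came to 4600 with DESeq2. With library totals or either limma fit 69.2% of calls were higher, beside 51.1%; under library totals the intracellular FGF factors had 3 genes higher, the other dual-specificity phosphatases 5 higher and 3 lower, and the other ERK output genes 5 higher and 1 lower. List medians kept their sign in the alternatives except those of heparan sulfate genes (-0.02 to 0.11), other ERK output genes (-0.01 to 0.11), newly formed oligodendrocyte markers (-0.04 to 0.07) and Etv4 with Etv5 (-0.10 to 0.02).

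Replicate numbers did not pair the samples: the deviations of same-numbered libraries had correlations of 0.04, 0.03 and -0.03. The replicate block gave 5429 calls and 8 of the 10 genes. Depth limits Spry4 most, with 108 to 305 reads a library, and with 3 libraries a genotype no exact permutation test can go below p = 0.1.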
